A study of Homo sapiens with 8 samples.

Results

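MicroRNA host genes are long noncoding RNA (lncRNA) genes named for the microRNAs that their primary transcripts carry. The members were every gene in the deposited tables annotated as lncRNA whose symbol begins with MIR and ends in HG. They numbered 32 of 17912 genes, and 30 of them had the mean signal of at least 1 that was required for testing. RNA was measured after 48 h in wild-type NKM-1 cells, a human myeloid leukemia line that is kept in culture. The 4 SF153 libraries came from cells given SF153 at 30 uM, a compound that the series title describes as an inhibitor of UHM splicing factors, and the 4 DMSO libraries came from cells given the solvent. Each group had 2 libraries in batch 1 and 2 in batch 2, and libraries are named by batch and number, so that SF153 2.1 is an SF153 library of batch 2. No label says that the libraries of 1 treatment and batch came from separate cultures, so the p-values measure the spread between libraries, which may be technical. The library names mark the 2 libraries of each treatment and batch as A and B under a shared leading number.

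A host gene is transcribed as a long primary RNA. The Drosha and DGCR8 complex cuts a hairpin out of an intron or exon of it, Exportin-5 carries the hairpin out of the nucleus, Dicer trims it to the mature microRNA, and an Argonaute protein uses bases 2 to 8 of that microRNA, the seed, to find matching mRNAs. Several such loci are well known in blood cells: miR-223 and miR-142 are abundant in myeloid cells, miR-155 and miR-146a accompany inflammatory signalling, and the miR-17 cluster is induced by MYC. The libraries held rRNA-depleted total RNA and reported the host transcript, not the mature microRNA, so the values below say nothing of mature microRNA levels.

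The 30 host genes with an entry in the RefSeq microRNA table carried 54 microRNA genes with 91 mature sequences. MIR3667HG and MIR30DHG had no entry. Of the 54, 27 lay in an intron of the GENCODE release 29 model, 23 in an exon, 1 across an exon boundary and 3 outside the release 29 model of their host, MIRLET7A1HG. The sequences are from RefSeq on GRCh38.p14, written 5′ to 3′ with the seed in capitals. The first set shows microRNAs whose host genes were higher in SF153 libraries:
hsa-miR-646: aAGCAGCUgccucugaggc
hsa-miR-34a-5p: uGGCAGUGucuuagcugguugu
hsa-miR-3936: uAAGGGGUguauggcagaugca
hsa-let-7a-5p: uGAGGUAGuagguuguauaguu
hsa-let-7b-5p: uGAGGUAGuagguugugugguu
hsa-miR-146a-5p: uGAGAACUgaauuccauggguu
hsa-miR-3142: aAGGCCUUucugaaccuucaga
hsa-miR-29b-3p: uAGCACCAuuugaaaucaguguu
hsa-miR-29c-3p: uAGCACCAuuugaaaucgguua
hsa-miR-4435: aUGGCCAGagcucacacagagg

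The second set shows microRNAs of the host genes that were lower in SF153 libraries. The seed ACAUUCA of the miR-181 family is also carried by MIR181A2HG, and the same mature miR-9 is also carried by MIR9-1HG:
hsa-miR-181a-5p: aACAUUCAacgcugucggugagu
hsa-miR-181b-5p: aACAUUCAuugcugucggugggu
hsa-miR-9-5p: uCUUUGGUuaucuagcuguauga

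The third set shows other carriers of the let-7 seed GAGGUAG, which 4 host genes share. The first, let-7c, lies in MIR99AHG, let-7d and let-7f belong to MIRLET7A1HG, which also carries a copy of let-7a, and let-7i lies in MIRLET7IHG:
hsa-let-7c-5p: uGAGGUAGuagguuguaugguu
hsa-let-7d-5p: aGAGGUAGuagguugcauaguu
hsa-let-7f-5p: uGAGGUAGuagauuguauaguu
hsa-let-7i-5p: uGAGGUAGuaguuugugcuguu

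The fourth set shows microRNAs of MIR223HG and MIR142HG, known blood cell loci with high host signal that were not called:
hsa-miR-223-3p: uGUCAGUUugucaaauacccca
hsa-miR-142-3p: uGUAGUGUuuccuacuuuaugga
hsa-miR-142-5p: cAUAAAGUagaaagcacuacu

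The deposited signal is a TPM-type value, scaled by transcript length and by library. Its columns summed to 828381 and 835840 for the batch 2 SF153 libraries and to between 990815 and 1027119 for the other libraries. Read depth is unknown, so no counting interval is given. The mitochondrial share of the signal was 16.8% for each batch 2 SF153 library, 9.17% to 9.92% for the batch 1 SF153 libraries and 9.38% to 9.63% for DMSO. The share of RN7SK, an abundant small nuclear RNA, was 18.2% and 18.7% for the batch 1 SF153 libraries, 11.4% and 12.1% for the batch 2 SF153 libraries, and 11.7% to 13.9% for DMSO. All small RNA genes together, RN7SK among them, held 45.8% and 47.0% for the batch 1 SF153 libraries. Their share was 32.9% and 33.3% for the batch 2 SF153 libraries and 33.9% to 38.5% for DMSO. Of 10 myeloid markers, 9 were in the files, with a summed signal of 913 to 1145 in SF153 libraries and 1368 to 1543 in DMSO libraries. The list went both ways: 5 of the 9 had a lower mean in SF153 libraries, with MPO at 469.6 in SF153 libraries and 740.3 in DMSO libraries as the most abundant, and 4 had a higher one (CD33, CSF3R, CD68 and ITGAM). Markers of T cells, erythroid cells, epithelium and fibroblasts were not among the genes of the files. Of 3 B cell markers 1 was in the files, CD79A, which averaged a signal of 6.72 in SF153 libraries and 27.1 in DMSO libraries, and of 3 endothelial markers 1, PECAM1, which averaged 19.3 in SF153 libraries and 12.5 in DMSO libraries. The part that these differences play in any result below was not tested.

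Host gene levels spanned a wide range, and the order was led by loci of blood cell microRNAs. The summed signal of the 32 genes was 1388, 1449.6, 1379 and 1359 in SF153 libraries and 1262, 1272, 1366 and 1336 in DMSO libraries, and these ranges overlapped. In each group 9 of the 32 averaged at least 50, and 15 averaged below 10 in DMSO libraries. By DMSO mean, MIR223HG was the highest host gene and ranked 12 among all lncRNA genes. It was followed by MIR181A1HG at rank 13, MIR142HG at rank 21 and MIR222HG at rank 30.

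**Figure D1:**
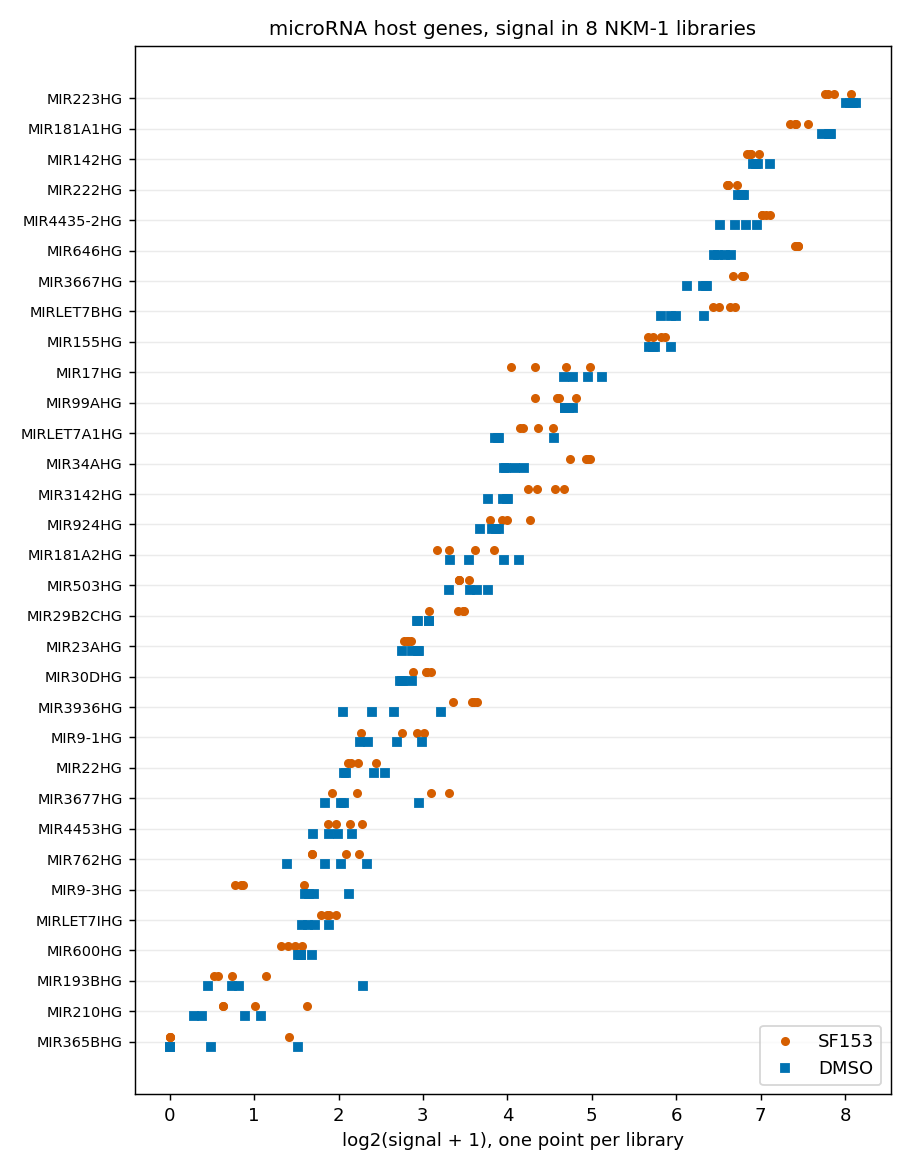
Signal of the 32 host genes on a log2(signal + 1) axis, 1 point per library, with SF153 as circles drawn above DMSO as squares and genes ordered by DMSO mean. MIR646HG and MIR34AHG show 2 separate clusters of 4 points, whereas the points of MIR155HG lie on top of each other.

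The relative signal of 8 host genes was called higher in SF153 libraries, and that of 2 was called lower. By limma with Benjamini-Hochberg adjustment over all 15542 genes tested, 10 of 30 host genes were called (33.3%), against 37.2% of all genes. Of the 30, 8 were higher in SF153 libraries (26.7%), against a background of 13.0% of all genes and 16.3% of other lncRNA genes. Lower calls numbered 2 (6.67%), against 24.3% of all genes and 3.66% of other lncRNA genes. The other 20 did not pass. These counts depended on the scaling: with mitochondrial and small RNA genes removed 14 were higher and 0 lower by limma (1 lower at an unadjusted p below 0.05). With that removal 5382 of all 15373 genes tested were higher and 2115 lower, and their median log2 difference was 0.26. After averaging the 2 libraries of each treatment and batch, 4 host genes were higher and 0 lower by limma. At an unadjusted p below 0.05, 2 were lower after this averaging. Of all genes tested, 910 were then higher and 2519 lower. With the deposited values the median log2 difference of the 30 was 0.08, beside -0.03 over all genes tested and 0.19 over other lncRNA genes, and 16 of the 30 lay above 0. The 4 SF153 libraries all lay above the 4 DMSO libraries for 9 host genes, with 13.2% of all genes doing so, and all below for 3, with 23.6% of all genes doing so. In bulk RNA, a change in the share of cells that express a gene and a change in RNA per cell cannot be told apart.

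**Figure D2:**
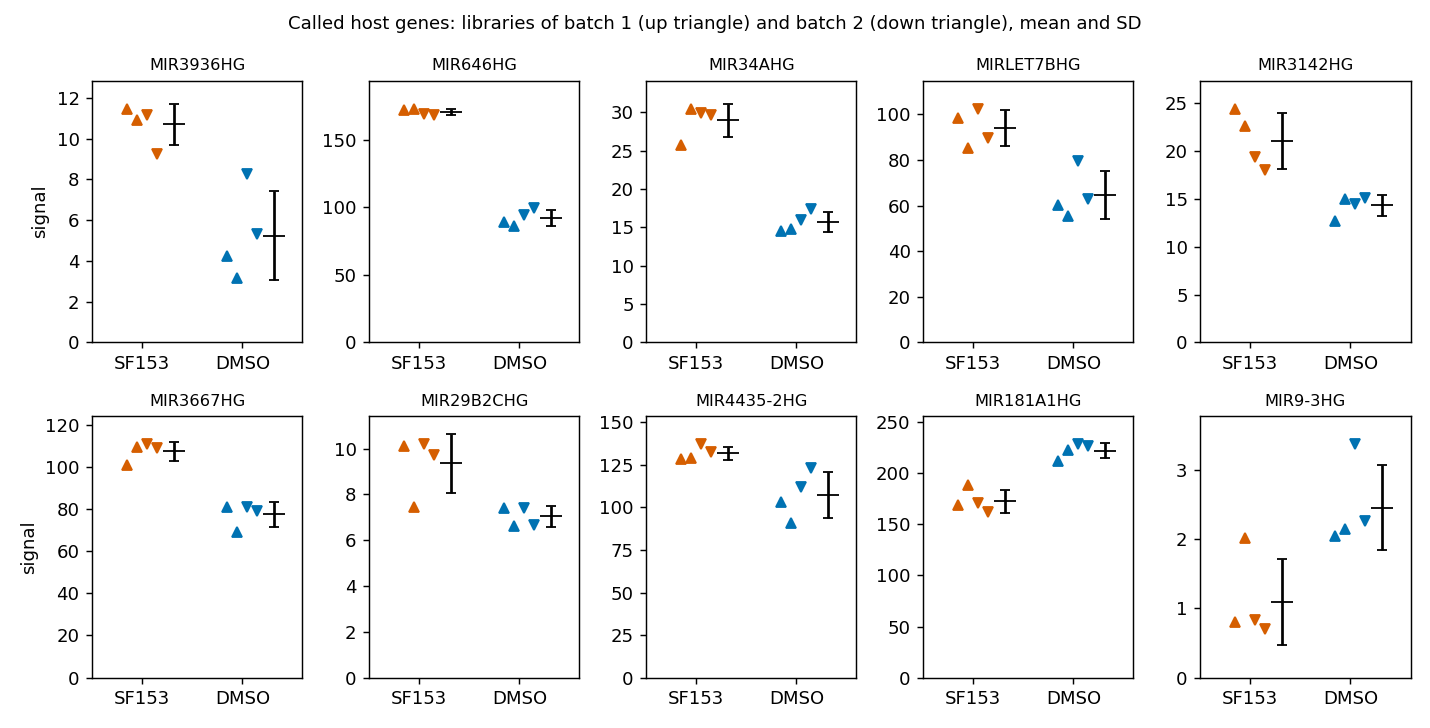
Signal of the 10 called host genes in each library, linear axes from 0, SF153 left of DMSO, with up triangles for batch 1, down triangles for batch 2 and the mean with its SD (n = 4 per group) in black. The 4 SF153 points of MIR646HG lie close together, far above DMSO, and MIR9-3HG has 1 SF153 library beside the DMSO group.

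MIR646HG (chr20:60087840-60527458, plus strand, GRCh38) is a gene of 439.6 kb that holds MIR646 and MIR4533 in introns. Its signal was 172.6, 173.0, 169.5 and 168.9 in SF153 libraries, against 89.4, 86.2, 94.3 and 99.7 in DMSO libraries. The groups were far apart beside their spread, with means of 171.0 ± 2.10 in SF153 libraries and 92.4 ± 5.89 in DMSO libraries (SD, n = 4 each). This was a 1.85-fold ratio of means and a log2 difference of 0.88 ± 0.07 (SE, limma adjusted p = 2.84e-05), with 0.97 in batch 1 and 0.80 in batch 2.

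MIR34AHG (chr1:9148011-9198906, minus strand) carries MIR34A in an exon at chr1:9151668-9151777. miR-34a is known to lower cell cycle and survival mRNAs. The host signal was 25.8, 30.4, 29.9 and 29.6 in SF153 libraries, against 14.6, 14.8, 16 and 17.4 in DMSO libraries. The groups did not overlap, and the ratio of means was 1.84, a log2 difference of 0.84 ± 0.09 (limma adjusted p = 0.000131). LNCTAM34A, an lncRNA that overlaps MIR34AHG on the opposite strand, averaged 3.64 in SF153 libraries and 2.08 in DMSO libraries and was not called (0.65, limma adjusted p = 0.0725). The libraries kept strand, but whether the counting used it was not given in the sources used here, so reads of overlapping genes may not be told apart.

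MIRLET7BHG (chr22:46053869-46113928, plus strand) carries MIRLET7A3, MIRLET7B and MIR4763 in exons near its end and MIR3619 in an intron. let-7 microRNAs are known to restrain growth genes such as RAS and HMGA2. Its signal was 98.4, 85.5, 102 and 89.7 in SF153 libraries, against 60.4, 55.6, 79.7 and 63.0 in DMSO libraries. All SF153 libraries were above the highest DMSO library, 2.1, and the log2 difference was 0.54 ± 0.11 (limma adjusted p = 0.00462). Exons of MIRLET7BHG overlap those of the lncRNA PRR34-AS1 on the same strand, so strand cannot tell reads of the overlap apart. PRR34-AS1 averaged 2.09 in SF153 libraries and 2.82 in DMSO libraries and was not called (-0.38, limma adjusted p = 0.34). The other carriers of the seed GAGGUAG did not pass the test. MIRLET7A1HG averaged 18.97 ± 2.60 in SF153 libraries and 15.9 ± 4.35 in DMSO libraries, a log2 difference of 0.26 (limma adjusted p = 0.258), MIRLET7IHG had 0.18 (0.402) and MIR99AHG had -0.13 (0.355). With mitochondrial and small RNA genes removed MIRLET7A1HG was called (0.58) and MIR99AHG lay above 0 (0.20), when the median of all genes was 0.26. The DMSO 1.2 library, at 22.5, stood apart from the other DMSO libraries of MIRLET7A1HG, and without it the log2 difference was 0.43 (limma adjusted p = 0.0267).

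MIR3142HG (chr5:160438594-160487426, plus strand) carries MIR3142 in an intron and MIR146A in an exon at chr5:160485352-160485450. miR-146a is induced by NF-kB and dampens Toll-like receptor signalling. The signal was 24.4, 22.6, 19.4 and 18.0 in SF153 libraries, against 12.70, 14.96, 14.48 and 15.15 in DMSO libraries. The groups did not overlap, the batch 1 SF153 libraries were the highest, and the log2 difference was 0.52 ± 0.11 (limma adjusted p = 0.00585), with 0.73 in batch 1 and 0.32 in batch 2. In batch 2 alone the gene was not called. Its neighbour PTTG1, the securin gene, lies 9850 bases upstream on the same strand and was lower, at 8.95 ± 1.42 in SF153 libraries and 33.3 ± 5.19 in DMSO libraries (limma adjusted p = 3.7e-05).

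MIR3936HG (chr5:132311285-132369916, minus strand) carries MIR3936 in an intron. The signal was 11.5, 10.9, 11.2 and 9.24 in SF153 libraries, against 4.25, 3.14, 8.27 and 5.31 in DMSO libraries. SF153 2.2 and DMSO 2.1 came within 1 unit of signal of each other, yet the groups did not overlap. The ratio of means was 2.04, the highest among called host genes, and the log2 difference was 0.97 ± 0.22 (limma adjusted p = 0.00756), with 1.39 in batch 1 and 0.55 in batch 2, where it was not called alone. Exons of MIR3936HG overlap those of the organic cation transporter genes SLC22A4 and SLC22A5 on the opposite strand, which had log2 differences of 0.00 and 0.05 and were not called.

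MIR3667HG (chr22:49414524-49657542, minus strand), named C22orf34 in GENCODE release 29, had a signal of 100.8, 109.2, 110.6 and 108.7 in SF153 libraries, against 81.1, 68.9, 80.8 and 78.8 in DMSO libraries. No SF153 library was near the DMSO range. The log2 difference was 0.47 ± 0.07 (limma adjusted p = 0.000968), and it was close in batch 1 (0.48) and batch 2 (0.45).

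MIR4435-2HG (chr2:111036776-111523376, minus strand) is 486.6 kb long with MIR4435-2 in an intron. In mice its counterpart Morrbid is known to prolong the life of myeloid cells by lowering the pro-apoptotic gene Bcl2l11. The signal was 128.3, 128.9, 137.0 and 132.4 in SF153 libraries, against 103.0, 91.0, 112.1 and 123.0 in DMSO libraries. The groups were separated by a gap smaller than the DMSO spread, and the log2 difference was 0.30 ± 0.09 (limma adjusted p = 0.0281). Leaving out SF153 2.1, SF153 2.2, DMSO 1.1 or DMSO 1.2 ended the call, with log2 differences over all 8 such fits of 0.23 to 0.37. BCL2L11, which overlaps it on the opposite strand, averaged 14.2 ± 3.90 in SF153 libraries and 20.5 ± 4.94 in DMSO libraries and was not called (-0.50, limma adjusted p = 0.0723). CYTOR is a partly near-identical copy, and 25.2% of the 31-base words of MIR4435-2HG also occur in it, so reads can be split between them. CYTOR had a log2 difference of -0.12 (limma adjusted p = 0.26), and the summed signal of both genes was 193 ± 4.05 in SF153 libraries and 175 ± 7.87 in DMSO libraries.

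MIR29B2CHG (chr1:207801518-207879096, minus strand) carries MIR29B2 and MIR29C in exons, and both mature microRNAs share the seed AGCACCA. The miR-29 family is known to act on DNA methyltransferase and collagen mRNAs. The signal was 10.1, 7.43, 10.2 and 9.70 in SF153 libraries, against 7.42, 6.64, 7.42 and 6.66 in DMSO libraries. SF153 1.2 was nearly level with the highest DMSO libraries. The log2 difference was 0.36 ± 0.13 (limma adjusted p = 0.0478), and with the batch number as a replicate block the adjusted p was 0.0527. Leaving out any library other than SF153 1.2 ended the call (0.32 to 0.45 over the 8 fits).

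MIR181A1HG (chr1:198807493-198937429, minus strand) carries MIR181A1 and MIR181B1 in an intron. The miR-181 family is known for its role in lymphocyte development and its varied level among acute myeloid leukemias. The signal was 168.8, 188.2, 170.8 and 161.5 in SF153 libraries, against 211.4, 222.7, 228.0 and 226.0 in DMSO libraries. The groups did not overlap, and the log2 difference was -0.37 ± 0.07 (limma adjusted p = 0.00235), with -0.28 in batch 1, where it was not called alone, and -0.45 in batch 2. This direction depended on the scaling: it was 0.04 after quantile normalization, when the median of all genes was 0.06, and -0.02 with mitochondrial and small RNA genes removed, when that median was 0.26. MIR181A2HG, which carries MIR181A2 and MIR181B2 with the same seed, averaged 10.4 ± 2.41 in SF153 libraries and 12.7 ± 3.52 in DMSO libraries and was not called (-0.25, limma adjusted p = 0.373), and its log2 difference lay above 0 (0.06) with mitochondrial and small RNA genes removed.

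MIR9-3HG (chr15:89361579-89398487, plus strand) carries MIR9-3 in an intron, a microRNA known from the nervous system. Its signal was low, at 0.80, 2.02, 0.83 and 0.71 in SF153 libraries, against 2.05, 2.15, 3.37 and 2.26 in DMSO libraries. SF153 1.2 was almost level with the lowest DMSO library. The log2 difference was -0.75 ± 0.24 (limma adjusted p = 0.0339), and leaving out any library other than SF153 1.2 ended the call (-0.94 to -0.63 over the 8 fits). MIR9-1HG, which carries the same mature miR-9, averaged 5.82 ± 1.44 in SF153 libraries and 5.08 ± 1.46 in DMSO libraries (0.17, limma adjusted p = 0.576).

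**Figure D3:**
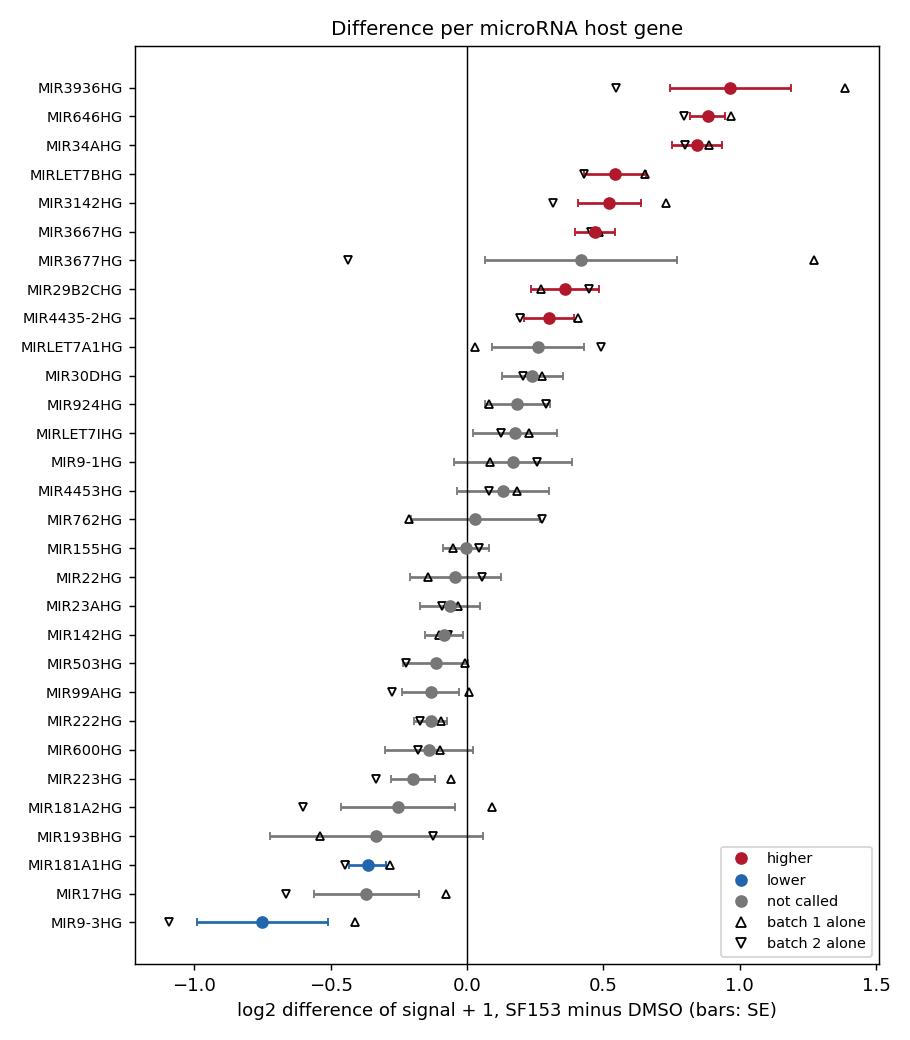
Log2 difference of signal + 1, SF153 minus DMSO, of the 30 tested host genes with its SE, and the difference within batch 1 and within batch 2 as open triangles. The 10 called genes lie on one side of 0 in both batches, which the call itself favors, and MIR3677HG has the widest gap between its batches.

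The best-known myeloid loci did not pass the test. MIR223HG (chrX:66015461-66020422, plus strand), host of the granulocyte microRNA miR-223, had a signal of 233.4, 268.9, 220.9 and 215.5 in SF153 libraries, against 256.5, 265.3, 271.6 and 279.5 in DMSO libraries. SF153 1.2 lay within the DMSO range, and the log2 difference was -0.20 ± 0.08 (limma adjusted p = 0.0834). Without SF153 1.2 the difference was called lower (-0.26, limma adjusted p = 0.0175), and so it was in batch 2 alone (-0.34). After quantile normalization it was called in the other direction (0.35, limma adjusted p = 0.00472). MIR142HG (chr17:58330884-58332508, minus strand), host of a microRNA of all blood lineages, had 113.01, 116.67, 125.54 and 117.76 in SF153 libraries, against 122.21, 124.27, 137.32 and 118.75 in DMSO libraries. The groups overlapped (-0.09 ± 0.07, limma adjusted p = 0.367), and with mitochondrial and small RNA genes removed the gene was called in the other direction (0.25, limma adjusted p = 0.0303). With those genes removed the median log2 difference of all genes was itself 0.26.

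MIR222HG, host of miR-221 and miR-222, which share the seed GCUACAU and act on KIT mRNA, averaged 98.7 ± 4.11 in SF153 libraries and 108 ± 2.18 in DMSO libraries. Its groups did not overlap, yet the difference was not called (-0.13 ± 0.06, limma adjusted p = 0.111), and with mitochondrial and small RNA genes removed it was called in the other direction (0.21, limma adjusted p = 0.0265). With those genes removed the median log2 difference of all genes was itself 0.26. MIR30DHG also had separate groups without a call, at 7.10 ± 0.52 in SF153 libraries and 5.85 ± 0.31 in DMSO libraries (0.24, limma adjusted p = 0.121). It was called higher after quantile normalization (0.31), with mitochondrial and small RNA genes removed (0.54) and with the length and mean trend removed (0.32). MIR155HG, host of the inflammatory miR-155, averaged 53.7 ± 3.50 in SF153 libraries and 53.8 ± 4.57 in DMSO libraries. Its log2 difference was 0.00 ± 0.08 (limma adjusted p = 0.977), yet it was called higher with mitochondrial and small RNA genes removed (0.33, limma adjusted p = 0.00747) and with the length and mean trend removed (0.28, limma adjusted p = 0.0243).

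MIR17HG, the primary transcript of a cluster of 6 microRNAs known as targets of MYC and E2F factors, had a signal of 30.62, 19.01, 15.54 and 25.00 in SF153 libraries, against 24.57, 26.48, 33.72 and 30.12 in DMSO libraries. SF153 1.1 and 2.2 lay within the DMSO range, and the log2 difference of -0.37 ± 0.19 was not called (limma adjusted p = 0.163). Without SF153 1.1 it was -0.53 (limma adjusted p = 0.0403). The other host genes that were tested did not pass, and their groups overlapped. MIR99AHG (chr21:15928296-16645065, plus strand), the longest member at 716.8 kb and host of let-7c, miR-99a and miR-125b-2, averaged 23.2 ± 3.28 in SF153 libraries and 25.4 ± 0.82 in DMSO libraries. MIR924HG averaged 15.1 ± 2.29 in SF153 libraries and 13.1 ± 0.97 in DMSO libraries (log2 difference 0.18, limma adjusted p = 0.253), and it was called higher after quantile normalization (0.37), with mitochondrial and small RNA genes removed (0.50) and with the length and mean trend removed (0.39). It is the longest but one. With mitochondrial and small RNA genes removed the median log2 difference of all genes was 0.26.

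MIR23AHG, host of the miR-23a, miR-27a and miR-24-2 cluster known from granulocyte and lymphocyte development, averaged 6.05 ± 0.18 in SF153 libraries and 6.38 ± 0.45 in DMSO libraries (-0.06, limma adjusted p = 0.688). MIR22HG, whose microRNA miR-22 is known to act on the demethylase TET2, averaged 3.73 ± 0.49 in SF153 libraries and 3.91 ± 0.84 in DMSO libraries (-0.04, limma adjusted p = 0.86). MIR503HG averaged 9.99 ± 0.48 in SF153 libraries and 10.98 ± 1.58 in DMSO libraries. These host genes had small differences beside their spread.

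The host genes with the lowest signal did not pass the test either, and the values of several were spread widely between libraries. MIR4453HG averaged 3.21 ± 0.52 in SF153 libraries and 2.85 ± 0.52 in DMSO libraries. MIR762HG averaged 2.86 ± 0.77 in SF153 libraries and 2.83 ± 1.02 in DMSO libraries, while BCL7C, which overlaps it, was lower (-1.07, limma adjusted p = 0.00348). MIRLET7IHG averaged 2.68 ± 0.18 in SF153 libraries and 2.27 ± 0.31 in DMSO libraries, and MIR600HG averaged 1.72 ± 0.20 in SF153 libraries and 2.00 ± 0.16 in DMSO libraries. MIR193BHG averaged 0.70 ± 0.35 in SF153 libraries and 1.43 ± 1.66 in DMSO libraries, with 1 DMSO library at 3.90 and the others below 1. MIR210HG, whose microRNA is a hypoxia marker, averaged 1.06 ± 0.73 in SF153 libraries and 0.62 ± 0.43 in DMSO libraries and was not tested. MIR365BHG, which shares the seed AAUGCCC of miR-365 with MIR193BHG, averaged 0.42 ± 0.83 in SF153 libraries and 0.57 ± 0.89 in DMSO libraries and was not tested either.

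The batches gave the same direction for 24 of 30 tested host genes and for all 10 that were called. The calls used the values of both batches, so the agreement of the called genes is not independent of the call. The share of all genes with the same direction was not computed. Of the 8 called higher, 7 had the larger difference in batch 1. No host gene had a treatment by batch interaction past the limma adjusted threshold, which 1.15% of all genes passed, and 3 had an unadjusted p below 0.05, where 10.1% of all genes did. The 3 were MIR3677HG, MIR223HG and MIR3936HG. MIR3677HG had a signal of 7.57, 8.94, 3.67 and 2.78 in SF153 libraries, against 2.59, 3.07, 6.77 and 3.17 in DMSO libraries. Its log2 difference was 1.27 in batch 1 and -0.44 in batch 2 (limma interaction adjusted p = 0.188). It was called higher in batch 1 alone (limma adjusted p = 0.0166) and was not called in batch 2 alone. RNPS1, a splicing-related gene that overlaps it on the opposite strand, averaged 89.3 ± 3.03 in SF153 libraries and 117.1 ± 3.52 in DMSO libraries (-0.39, limma adjusted p = 0.000888).

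The host genes called higher were long. Their spans in GENCODE release 29 ran from 48.8 to 486.6 kb, while those not called ran from 1.44 to 716.8 kb. The shortest was MIRLET7A1HG, whose release 29 model leaves out its own microRNA genes, so a span in that release may fall short of the full gene. With a boundary of 40 kb, set after the values were seen and therefore not tested, 8 of 12 tested host genes above it were higher and 1 was lower, and 0 of 18 below it were higher and 1 was lower. Among other lncRNA genes 25.4% were higher above 40 kb and 15.9% below it, and among protein-coding genes 11.8% were higher above and 10.4% below. Lower calls made up 2.31% above and 3.62% below among other lncRNA genes, and 24.7% above and 38.1% below among protein-coding genes. The longer host genes also had more signal, with a median DMSO signal of 20.5 for the 12 and 5.47 for the 18. The part that signal level plays in these counts was not tested.

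**Figure D4:**
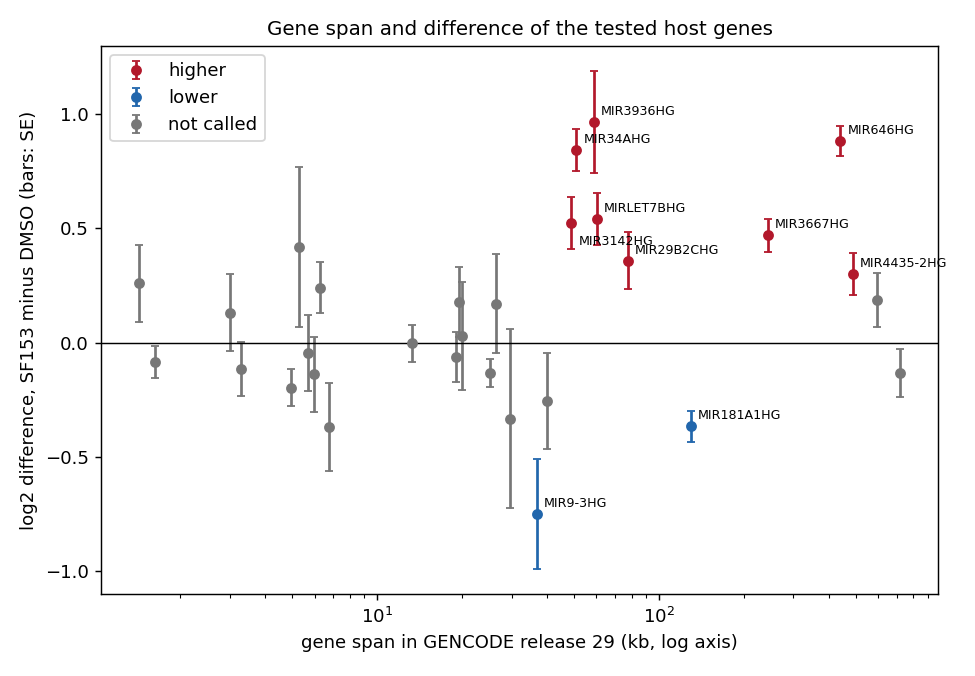
Log2 difference, SF153 minus DMSO, with its SE against gene span on a log axis for the 30 tested host genes. All 8 genes called higher are longer than 48 kb, and MIR924HG and MIR99AHG are the longest genes without a call.

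MicroRNAs also lie within genes that do not carry a host gene symbol. Of 44 such genes listed by name, 39 were tested, 9 were higher and 12 were lower, with a median log2 difference of 0.00. These shares were 23.1% higher and 30.8% lower, beside 13.0% and 24.3% of all genes tested. The strand of each microRNA was not checked, so the RNA of a listed gene, such as DNM3, may not be the primary transcript. SREBF1, the lipogenic transcription factor gene that holds MIR33B, averaged 224 ± 16.3 in SF153 libraries and 91.5 ± 11.5 in DMSO libraries (1.29 ± 0.10, limma adjusted p = 2.96e-05), and SREBF2, which holds MIR33A and drives cholesterol synthesis, had 0.64 (0.00472). DNM3, the noncoding FTX and AOPEP were also higher, by 0.96, 0.52 and 0.41. The groups of AOPEP overlapped (limma adjusted p = 0.0488). H19, the imprinted lncRNA that holds MIR675, averaged 0.71 ± 0.65 in SF153 libraries and 5.77 in DMSO libraries, and its log2 difference was -2.03. SKA2 and MCM7, a replication helicase gene that holds MIR25, had log2 differences of -1.51 and -0.77. COPZ1, EIF4H, HNRNPK and SMC4 were also lower (-0.96, -0.85, -0.77 and -0.66).

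Of 30 microRNA biogenesis genes tested, 1 was higher (3.33%) and 5 were lower (16.7%), beside 13.0% and 24.3% of all genes tested, with a median log2 difference of -0.05. DROSHA averaged 76.3 ± 10.9 in SF153 libraries and 78.9 ± 1.66 in DMSO libraries, and DICER1 averaged 44.6 ± 7.13 in SF153 libraries and 44.7 ± 6.41 in DMSO libraries. DGCR8, XPO5 and AGO1 to AGO4 did not pass the test either, with log2 differences between -0.15 and 0.09. The lower genes were RAN, the GTPase that drives Exportin-5 (-1.54 ± 0.15, limma adjusted p = 8.1e-05), KHSRP, which binds the loop of some let-7 precursors (-1.07 ± 0.08, limma adjusted p = 2.96e-05), TSN, GEMIN4 and HNRNPA2B1 (-0.99, -0.63 and -0.38). METTL3, which marks primary microRNAs with m6A, was the gene called higher (0.18, limma adjusted p = 0.0479), and its call was lost with no filter on low values, without a trend in the variance, after averaging, in batch 1 alone and without SF153 2.1, SF153 2.2, DMSO 1.2 or DMSO 2.2. With the batch number as a replicate block 2 genes of this list were higher. With mitochondrial and small RNA genes removed 13 were higher, beside 5382 of all 15373 genes tested. The number lower stayed at 5 or 6 with each library left out.

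Of 21 listed transcription factors known to act on host gene promoters, 1 was higher (4.76%) and 8 were lower (38.1%), beside 13.0% and 24.3% of all genes tested. The median log2 difference was -0.17. With mitochondrial and small RNA genes removed 7 were higher and 5 lower, beside 5382 and 2115 of all 15373 genes tested. HIF1A was the higher one, at 35.5 ± 1.67 in SF153 libraries and 27.8 in DMSO libraries, and its call was lost without a trend in the variance, after averaging, in either batch alone and when any library other than DMSO 1.2 or DMSO 2.2 was left out. MYC averaged 57.8 ± 11.9 in SF153 libraries and 98.5 ± 3.02 in DMSO libraries (-0.78 ± 0.13, limma adjusted p = 0.00131). CEBPA, a myeloid factor that acts on MIR223HG, had -0.76, and E2F1, E2F2 and E2F3 had -0.70, -0.72 and -0.35.

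Calls of the host genes differed in how far they held under 21 other settings. The log2 differences of the 8 genes called higher lay above 0 in all 21. MIR646HG, MIR34AHG and MIR3667HG were called in all 21, MIRLET7BHG in 20, and MIR3936HG and MIR3142HG in 19. MIR181A1HG was called in 16 and MIR4435-2HG in 14. MIR9-3HG was called in 9 of the 20 in which it was tested, and MIR29B2CHG in 8 of 21. After averaging the 2 libraries of a treatment within a batch, 4 host genes were higher (MIR646HG, MIR34AHG, MIRLET7BHG and MIR3667HG) and 0 were lower by limma, with 2 lower at an unadjusted p below 0.05. Of all 15542 genes tested, 910 were higher and 2519 lower after this averaging.

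**Figure D5:**
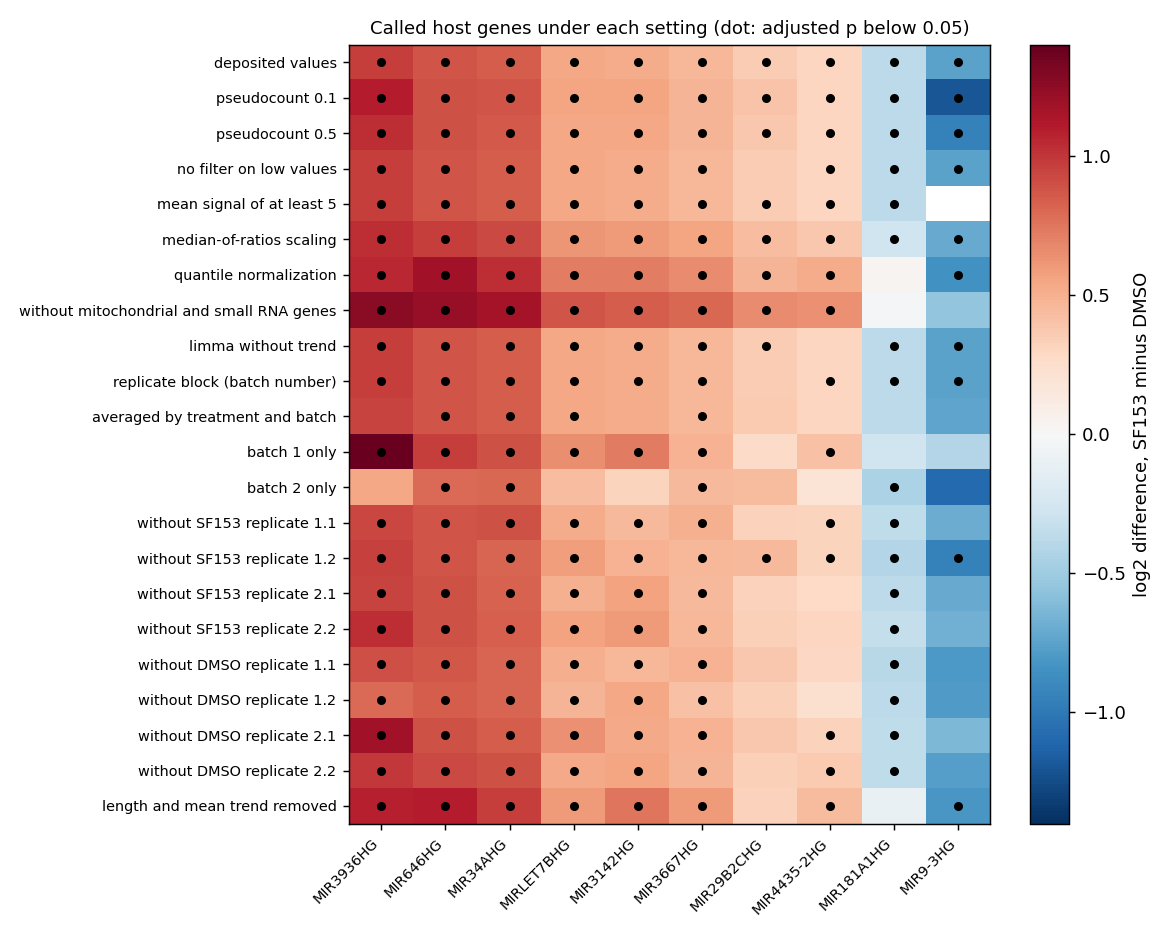
Log2 difference, SF153 minus DMSO, of the 10 called host genes (columns) with the deposited values and under 21 other settings (rows), and a dot where the limma adjusted p was below 0.05. Every row has dots for MIR646HG, MIR34AHG and MIR3667HG, and MIR181A1HG loses its color after quantile normalization and without mitochondrial and small RNA genes.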

How the data were processed

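RNA was measured in 8 rRNA-depleted, randomly primed, dUTP-stranded total RNA libraries of NKM-1 cells, per the labels' protocols. Per the submitters' processing notes, the tools were CASAVA 1.8.2, STAR, Salmon and edgeR and the build was GRCh38. The notes as used here give no roles. The deposited signal values are TPM-type values whose columns do not share a total, so they were treated as a signal and not as counts, and read depth is unknown. A change of very abundant RNA shifts all other values of that library.

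The 4 SF153 libraries were compared with the 4 DMSO libraries by limma 3.58.1 (R 4.3.3), using log2(signal + 1), a variance trend on intensity and no batch term. Genes under a mean signal of 1 over the 8 libraries were left out, which kept 15542. The test was tried on simulated data with independent libraries, so that trial does not cover libraries that are technical repeats. A call needed a two-sided p, adjusted by Benjamini-Hochberg over all these genes, below 0.05. Fold changes on this scale understate low genes. GENCODE release 29 on GRCh38 gave positions for 17245 of 17912 identifiers and for all 32 host genes. Figures were drawn with matplotlib 3.10.9.

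The members, lists and tests were chosen with earlier results of these data known. Every host gene may be named, and the called ones and the 3 highest by DMSO mean get values in every library. Up to 6 called members were to be named per list. More are named of the genes without a host gene symbol, and not all by size of difference. CYTOR was added after its values were seen. The value of 1 listed transcription factor, which stays in the counts of its list, is not reported here.

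The labels give each library a batch of 1 or 2 in a field of its own, apart from the titles. This batch number was used in the replicate block, the interaction fit, the averaging and the fits of each batch alone. The main fit was unpaired and did not use it. Deviations of libraries of the same batch and different treatment had a mean correlation of 0.026 across genes. Replicate pairs had r between 0.960 and 0.967, and no pair held identical values. Alternatives covered the pseudocount, the filter, 3 scalings, the variance model, the replicate block, averaging, each batch alone, a length trend and each library left out.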

Additional observations from a re-analysis of the deposited data

Results flagged for a closer look

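In 9 of 64 groups of 4 libraries, 1 library stood apart from the other 3 by Dixon's criterion. The criterion flags about 1 in 20 groups of normally distributed values, whereas these were raw signals and some lay near 0. The share of all genes flagged was not computed, so no excess among host genes can be read from this count. Among SF153 libraries, MIR9-3HG was at 2.02 in SF153 1.2 and between 0.71 and 0.83 in the others, MIR222HG was at 104.8 in SF153 1.2 and between 95.9 and 97.1 in the others, MIR503HG was at 10.7 in SF153 2.2 and between 9.72 and 9.80 in the others, and MIR365BHG was at 1.67 in SF153 2.1 and listed at 0 in the others. Among DMSO libraries, 2.1 was high for MIR9-3HG (3.37, the others between 2.05 and 2.26), MIR3677HG (6.77, the others between 2.59 and 3.17) and MIR600HG (2.23, the others between 1.88 and 1.94). MIR193BHG was at 3.9 in DMSO 1.1 and between 0.37 and 0.77 in the others, and MIRLET7A1HG was at 22.45 in DMSO 1.2 and between 13.5 and 14.0 in the others. Of the called host genes, MIR9-3HG was the only one with such a library.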

How the results depend on the processing

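The number of host genes called higher was 8 with the deposited values, 14 without mitochondrial and small RNA genes, 4 with libraries averaged and 3 in batch 2 alone, and 6 to 8 with each library left out. The number called lower was 2 with the deposited values, 1 after quantile normalization, with a mean signal of at least 5 or with the length and mean trend removed, 0 without mitochondrial and small RNA genes, averaged or in batch 1 alone, and 1 to 3 with each library left out. At an unadjusted limma p below 0.05, 1 host gene was lower without mitochondrial and small RNA genes, 2 when averaged and 1 in batch 1 alone. The cause of these differences was not tested. Over all genes, 2015 were higher and 3770 lower, against 3225 higher after quantile normalization, 5382 and 2115 without the mitochondrial and small RNA genes, 910 higher when averaged, 861 and 2270 in batch 1 alone, and 859 and 2456 in batch 2 alone. The higher share of calls was 34.8%, 44.8% after median-of-ratios scaling, 53.3% after quantile normalization, 71.8% without mitochondrial and small RNA genes, and 46.8% with the trend removed. Removing the mitochondrial and small RNA genes moved the median of all genes by 0.295. With the replicate block, 7 host genes were higher and 2 lower, and it changed the call of no host gene other than MIR29B2CHG. Of the biogenesis list, 1 gene was higher, against 0 with no filter, without trend in the variance, averaged or in batch 1 alone, 2 with a mean signal of at least 5, with the replicate block or in batch 2 alone, 4 after median-of-ratios scaling or with the trend removed, 13 without mitochondrial and small RNA genes, 9 after quantile normalization and 0 to 2 with each library left out. Of the other hosts, 9 were higher and 12 lower, against 14 higher after quantile normalization, 21 and 7 without the mitochondrial and small RNA genes, 3 and 7 averaged, and 5 higher in either batch alone. Of the regulators, 1 was higher and 8 lower, against 4 and 5 after quantile normalization, 7 and 5 without mitochondrial and small RNA genes, 0 higher without trend in the variance, 0 and 5 averaged or in batch 1 alone, 0 and 4 in batch 2 alone, 2 and 5 with the trend removed and 0 to 1 higher with each library left out.

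The following host genes changed sign, none of them called with the deposited values except MIR181A1HG. Median-of-ratios scaling gave MIR22HG 0.0213, MIR155HG 0.0771 and MIR23AHG 0.0081. Quantile normalization gave MIR99AHG 0.0716, MIR503HG 0.041, MIR181A1HG 0.0366, MIR155HG 0.18, MIR762HG -0.0436, MIR142HG 0.125, MIR23AHG 0.00562, MIR222HG 0.0376 and MIR223HG 0.347. Removing mitochondrial and small RNA genes gave MIR22HG 0.228, MIR99AHG 0.196, MIR503HG 0.197, MIR181A2HG 0.0588, MIR155HG 0.333, MIR600HG 0.0832, MIR142HG 0.254, MIR23AHG 0.233, MIR222HG 0.206 and MIR223HG 0.145. The median of all genes was 0.261 with this removal. Batch 1 alone gave MIR99AHG 0.00707, MIR181A2HG 0.0914 and MIR762HG -0.214, and batch 2 alone gave MIR22HG 0.0547, MIR155HG 0.0437 and MIR3677HG -0.438. Removing the trend gave MIR155HG 0.28, MIR762HG -0.0478, MIR142HG 0.141, MIR222HG 0.0538 and MIR223HG 0.103. With each library left out, the range was -0.0367 to 0.0527 for MIR155HG (0.0121 without SF153 1.1 and 0.0312 without SF153 2.1), -0.141 to 0.176 for MIR762HG (-0.076 and -0.0241 without the same libraries), -0.54 to 0.0726 for MIR193BHG and -0.117 to 0.0481 for MIR22HG (0.00358 without DMSO 2.1). Without depth, differences of host genes with low signal, such as MIR9-3HG, cannot be set against counting error.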
